A study of Mus musculus with 12 samples.

Results

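The genes of the Wnt signalling pathway that act at and near the cell surface were followed through RNA sequencing of mouse prostate organoids. Members were taken by name from the deposited table: every listed Wnt, Frizzled (Fzd), secreted Frizzled-related protein (Sfrp) and Dickkopf (Dkk) gene, together with Lrp5, Lrp6, Axin2, Lgr4, Lgr5, Lgr6, Rnf43, Znrf3, Wif1, Frzb, Tcf7 and Lef1. This gave 41 of the 24674 listed genes, namely 15 Wnt ligands, 10 Frizzled receptors, 2 co-receptors, 3 R-spondin receptors, 2 receptor ligases, 6 secreted antagonists and 3 nuclear factors or target genes. They were chosen by name and not by a limit on the measured values, but with earlier results of these data known.

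Wnt ligands are lipid-modified secreted proteins that bind a Frizzled receptor together with the co-receptor Lrp5 or Lrp6. In the canonical branch this stabilises beta-catenin, which enters the nucleus and switches on genes with TCF and LEF factors, whereas other ligands act through polarity and calcium pathways. Secreted antagonists catch the ligand or block the co-receptor, the ligases Rnf43 and Znrf3 remove Frizzled from the surface, and R-spondins bound to Lgr receptors restrain these ligases. In the prostate, Wnt signals are known from bud formation and from the growth of epithelial progenitors.

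The organoids were grown in gel from prostate basal cells of Wildtype mice of strain C57BL/6 and formed 4 groups of 3 samples each. One group received Vehicle, one UK5099, which blocks the mitochondrial pyruvate carrier, one Butyrate, which inhibits histone deacetylases, and one UK5099+Butyrate, called the combination here. All groups shared the same genotype, strain and culture method. According to the study's methods the basal cells were sorted from male mice, and neither these nor the labels say whether replicates were separate mice or cultures, so p-values measure the spread between these samples, which may be technical.

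Values are TPM, a length-scaled measure of transcript abundance, which in this table had been obtained by dividing fragments by gene length with introns included and scaling every sample to a common total. Levels of different genes were therefore compared only as exonic FPKM, the fragments recovered from the TPM steps per kb of annotated exon and per 1e6 fragments. Between groups this scale runs ahead of TPM by 1 factor for every gene. Relative to vehicle the factor was 1.06 in UK5099, 1.24 in butyrate and 1.31 in the combination. Sums over the members of a role that are set side by side are therefore also given divided by it. Differences between groups are limma coefficients of log2(TPM + 0.1) with their SE, and a member was called when the Benjamini-Hochberg adjusted p was under 0.01 and the absolute coefficient was over 1. This scale understates changes of genes near 0. Positions are those of the deposited table, which names no build.

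The 12 libraries held 33251849 to 43498978 fragments. UK5099 replicate 1 and combination replicate 1 stood apart from their group, with a chi-square per degree of freedom of 6.38 to 6.75 against the other replicates, compared with 1.89 to 2.63 in all remaining pairs. Without both, 5, 10 and 14 members were called against vehicle for UK5099, butyrate and the combination, beside 4, 10 and 13 with all samples. The share of all genes was not counted for the fit without them. Basal markers (Krt5, Krt14 and Trp63) summed to 1764 to 1810.0 exonic FPKM in vehicle. Under UK5099, butyrate and the combination they summed to 5254 to 5346, 2868 to 2969 and 5320.3 to 5491. With butyrate, mean TPM went from 1848 to 3152 for Krt5 and from 5.23 to 8.46 for Trp63. For Krt14 it went down, from 1676 to 1391. Luminal markers (Krt8, Krt18, Krt19 and Prom1) summed to 2967 to 3042, 1738 to 1929, 2066 to 2078 and 1353 to 1542 in the same order. Epithelial markers (Epcam and Cdh1) summed to 1198 to 1214, 809 to 828, 638 to 647 and 479 to 483. In TPM Epcam went from 536 in vehicle to 95.4 in the combination, and Cdh1 from 172 to 84.9. None of these marker sums was divided by the factor between FPKM and TPM, so treated values stand higher against vehicle than in TPM. In bulk RNA, fewer cells of a type and less RNA per cell cannot be told apart. Stromal markers other than Dcn stayed at or under 0.504 exonic FPKM on average in each group, while Dcn went from 0.977 in vehicle to 15.2 with butyrate and 2.36 with the combination. Endothelial markers stayed near 0, and of the immune markers Ptprc and Csf1r were near 0 while Cd68 rose from 7.26 to 35.9 in the combination. The part of these marker shifts in the results was not tested.

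Of the 41 members, 35 reached a mean of 10 fragments in at least 1 group. The other 6, namely Wnt3, Wnt8b, Wnt16, Frzb, Sfrp2 and Sfrp5, were too low to compare. UK5099 alone moved 4 members past both limits against vehicle (9.76%, beside 4.19% of all genes), butyrate alone 10 (24.4%, beside 7.92%) and the combination 13 (31.7%, beside 13.3%). With UK5099 3 were higher and 1 lower, where 1.85% and 2.34% of all genes went each way. Butyrate raised 4 and lowered 6, where 2.95% and 4.98% of all genes went each way. The combination raised 5 and lowered 8, where 4.16% and 9.18% of all genes did. The median member coefficient was -0.12, -0.07 and -0.18, beside -0.09, -0.18 and -0.27 over all genes.

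The scale of the deposited values bears on these directions. Over the 13345 genes that averaged 1 TPM or more, the middle coefficient was -0.14 (UK5099), -0.35 (butyrate) and -0.49 (combination), and scaling each sample by its median of ratios brought it to about 0. After that scaling 5, 8 and 11 of the 41 members were called, beside 3.87%, 7.1% and 10.4% of all genes. The combination then raised 8 members and lowered 3, and butyrate raised 4 and lowered 4. Over all genes the share of calls that were higher moved with this scaling from 44.1% to 57.0% for UK5099, from 37.2% to 65.9% for butyrate, and from 31.2% to 67.7% for both drugs. The 7 calls lost were all on the lower side, and each is given with its rescaled coefficient beside the gene. No called coefficient changed sign. Voom on the recovered fragments called 10, 10 and 13 of the 41 members, beside 5.8%, 10.6% and 14.1% of all genes. On adjusted p alone 28, 26 and 28 of the 41 members passed, beside 32%, 45.9% and 51.7% of all genes. For butyrate against UK5099 23 of the 41 passed, beside 37.3% of all genes.

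**Figure D1:**
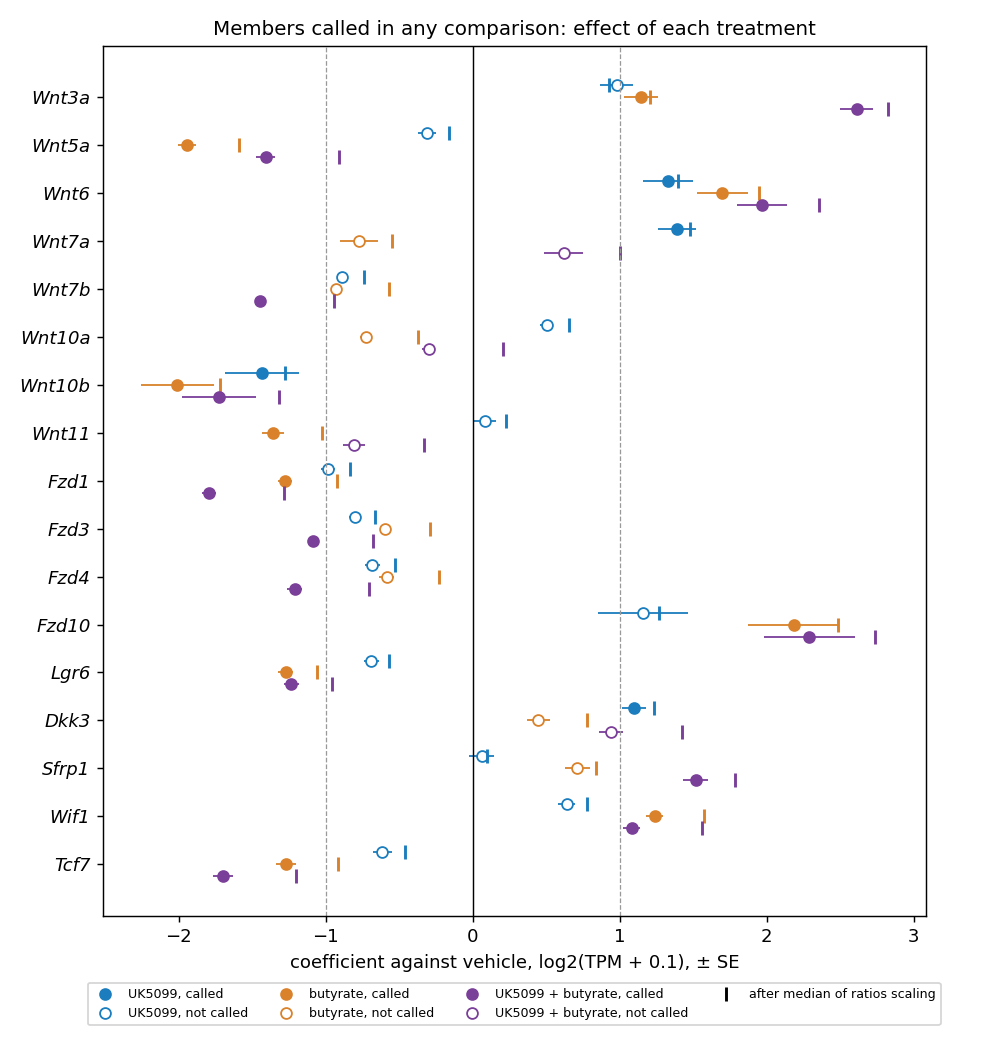
Limma coefficients on log2(TPM + 0.1) with SE for the 17 members called in any comparison, for UK5099 (blue), butyrate (orange) and the combination (purple) against vehicle. Filled points passed both limits, dashed lines mark a coefficient of 1 in either direction, and vertical ticks show the value after median of ratios scaling. Wnt3a, Wnt6 and Fzd10 lie right of 0 in each treatment, and Wnt10b and Fzd1 left of it.

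Of the 17 members called in any comparison 8 were ligands. Per exonic length, vehicle organoids held 78.6 ± 1.19 FPKM of Wnt ligand RNA (SD, n = 3), of which Wnt7b made 41.7%, Wnt10a 19.8% and Wnt4 19.0%. Wnt7b led at 32.8 ± 0.356 exonic FPKM. Wnt10a at 15.6 ± 0.496 and Wnt4 at 15.0 ± 0.239 followed and did not differ beyond their spread. Below them came Wnt5a at 6.54 ± 0.206, Wnt9a at 5.12 ± 0.377 and Wnt11 at 1.84 ± 0.123, and the other 9 ligands were each under 1. With the combination the order was changed, since Wnt4 led at 20.7 ± 0.342, and Wnt10a at 16.5 ± 0.599 and Wnt7b at 15.6 ± 0.39 lay close behind. Summed over all ligands, the level was 77.5 ± 0.417 under UK5099, 63.8 ± 0.308 under butyrate and 68.7 ± 0.741 under both, and 73.3 ± 1.601, 51.3 ± 0.541 and 52.6 ± 0.235 on the scale of TPM.

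**Figure D2:**
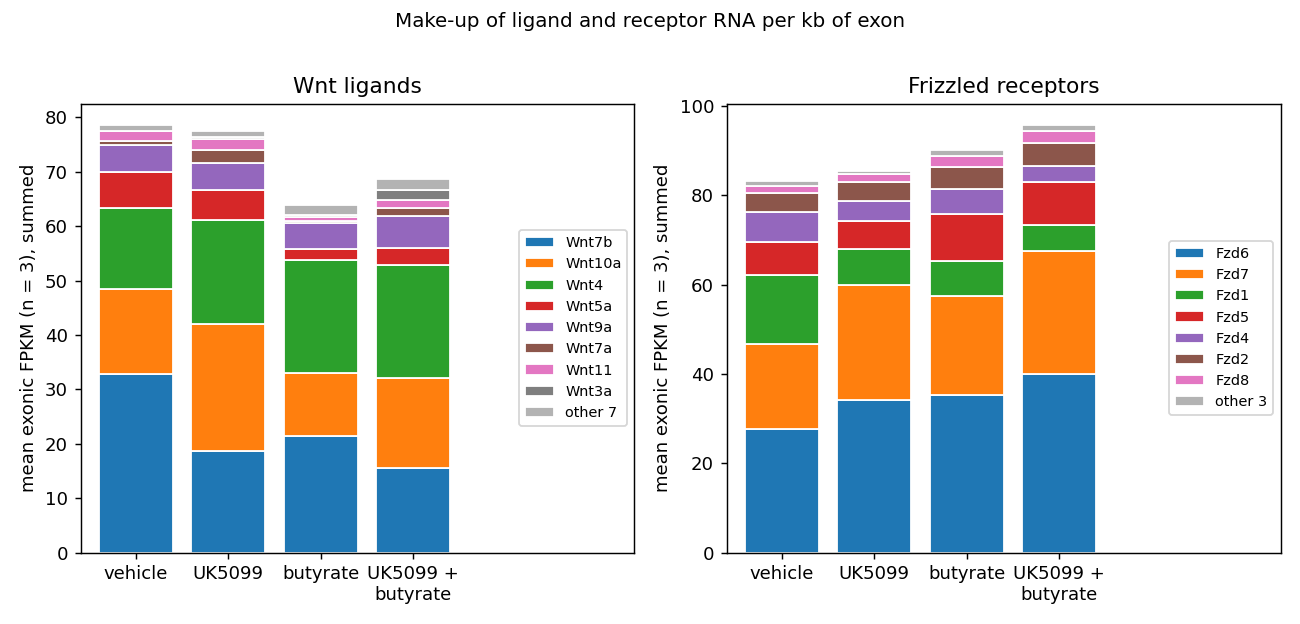
Stacked bars of mean exonic FPKM (n = 3 per group) for Wnt ligands (left) and Frizzled receptors (right), each starting at 0, with members that never reach 2 FPKM summed as other; bar heights differ between groups also by the factor between FPKM and TPM, shares do not. The Wnt7b band shrinks from 41.7% of ligand RNA in vehicle to 22.6% with the combination, and the Fzd1 band from 18.5% of receptor RNA to 6.04%.

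Wnt3a, the ligand most used to activate beta-catenin in culture, was detected in every treated sample and in no vehicle sample. The gene (chr11:59138859-59181578, minus strand) was listed at 0 TPM in all 3 vehicle samples. UK5099 samples held 0.0726, 0.0978 and 0.124 TPM and butyrate samples 0.161, 0.103 and 0.104 TPM, whereas the combination reached 0.514, 0.474 and 0.548 TPM. Every treated sample lay above vehicle, and the combination lay above both single treatments. Set against a floor of 3 fragments per vehicle library, the level was at least 10.4-fold higher under UK5099, at least 15.3-fold under butyrate and at least 67.0-fold under both, and these floors cover counting error only. The coefficient was 1.15 ± 0.11 (adjusted p = 1.53e-05) with butyrate and 2.61 ± 0.11 (adjusted p = 3.16e-08) with the combination. With UK5099 it was 0.98 ± 0.11 (adjusted p = 9.87e-05), which missed the limit on size. In exonic FPKM the combination level was 2.01 ± 0.133, well under Wnt4 or Wnt7b.

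Wnt6, an epithelial ligand, was raised by each treatment. Vehicle samples held 0.135, 0.162 and 0.277 TPM of this gene (chr1:74811051-74824481, plus strand) and UK5099 samples 0.522, 0.729 and 0.612 TPM. Butyrate samples held 0.894, 0.718 and 0.876 TPM and combination samples 1.03, 1.03 and 0.981 TPM. No treated sample overlapped vehicle. The coefficients were 1.33 ± 0.17 (adjusted p = 1.90e-04) for UK5099, 1.70 ± 0.17 (adjusted p = 1.65e-05) for butyrate and 1.97 ± 0.17 (adjusted p = 4.20e-06) for the combination.

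Wnt10b, a ligand known from mammary gland and fat tissue, went the other way. Vehicle samples held 0.974, 0.733 and 1.14 TPM (chr15:98668593-98676031, minus strand) and UK5099 samples 0.326, 0.404 and 0.162 TPM. Butyrate left 0.159, 0.109 and 0.215 TPM and the combination 0.232, 0.217 and 0.193 TPM. All treated samples lay below all vehicle samples, and the 3 treated groups overlapped one another. Coefficients were -1.43 ± 0.25 (adjusted p = 0.00127), -2.01 ± 0.25 (adjusted p = 7.51e-05) and -1.73 ± 0.25 (adjusted p = 1.83e-04) for UK5099, butyrate and the combination. The value for both drugs lay between those for each drug alone, and the interaction was 1.72 ± 0.35 (adjusted p = 0.00854). This was the 1 member called for the interaction (2.44%, beside 2.1% of all genes), also after median of ratios scaling (beside 2.01%). Voom called 5 of the 41 members (beside 2.68% of all genes). The Wnt10b call rested on few fragments, with group means of 11 to 51. Leaving out single libraries moved its adjusted p between 0.00631 and 0.0229, above 0.01 in 9 of 12 cases.

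**Figure D3:**
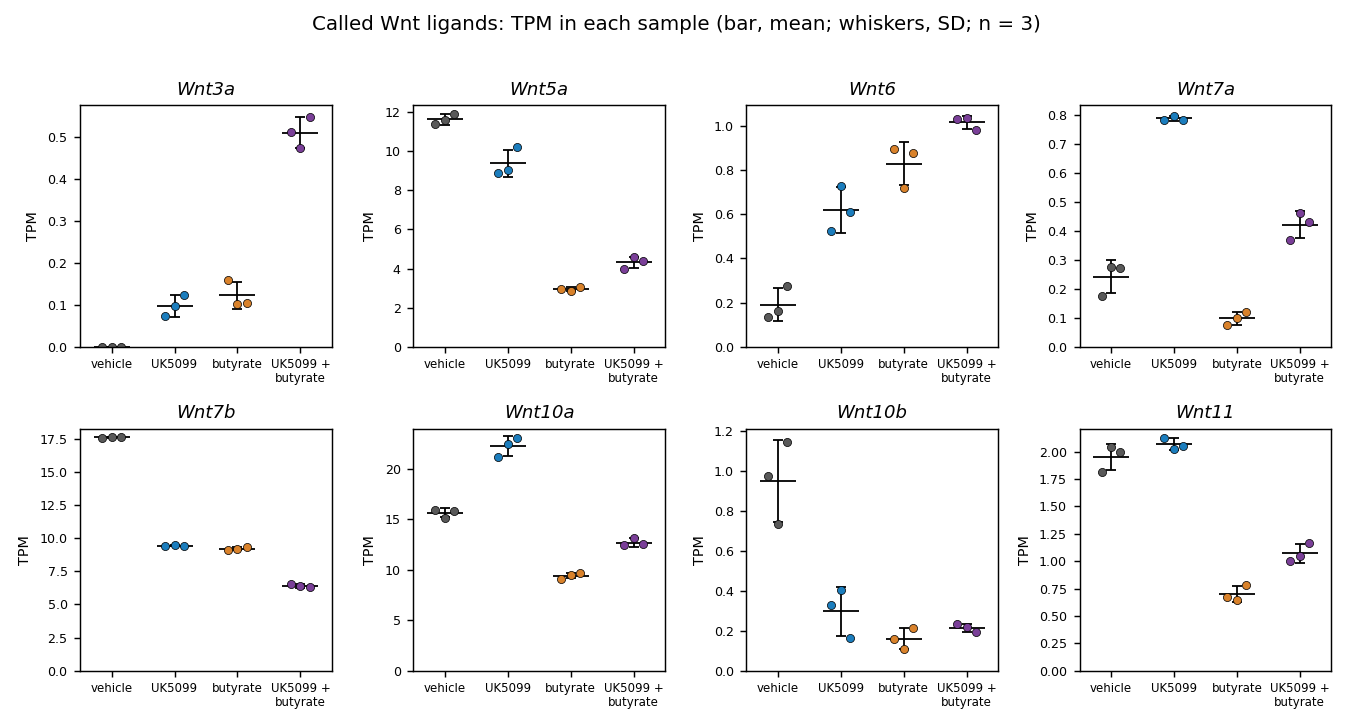
TPM (linear axis from 0) in each sample for the 8 called Wnt ligands, with points for the 3 samples of each group, a bar for the mean and whiskers for the SD. Wnt3a and Wnt6 are lowest in vehicle and highest in the combination, Wnt7b and Wnt10b are highest in vehicle, and Wnt7a, Wnt10a, Wnt5a and Wnt11 are lower with butyrate than with UK5099.

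Several ligands separated the 2 drugs. Compared directly, 4 members were called between butyrate and UK5099, all ligands and all lower with butyrate (9.76%, beside 4.78% of all genes). After median of ratios scaling 5 of the 41 were called (beside 4.6% of all genes), with Fzd10 higher at 1.22. Voom called 11 of the 41 (beside 7.2% of all genes), of which 6 were higher. Over all genes the share of calls that were higher moved from 44.5% to 63.3% with median of ratios scaling. Wnt7a, a ligand of limb and reproductive tract patterning (chr6:91340963-91388345, minus strand), held 0.175, 0.276 and 0.273 TPM in vehicle and 0.783, 0.796 and 0.783 with UK5099. Butyrate samples held 0.0747, 0.1 and 0.121 TPM and combination samples 0.369, 0.461 and 0.431 TPM. The 4 groups did not overlap, with UK5099 highest and butyrate lowest. Its coefficient was 1.39 ± 0.13 (adjusted p = 2.33e-05) for UK5099 against vehicle and -2.17 ± 0.13 (adjusted p = 1.03e-06) for butyrate against UK5099. Butyrate alone gave -0.77 ± 0.13 (adjusted p = 6.13e-04) and the combination 0.62 ± 0.13 (adjusted p = 0.00227), neither past the limit on size, though after median of ratios scaling the combination was called at 1.00.

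Wnt10a, a ligand needed for teeth and skin appendages, was likewise highest with UK5099 and lowest with butyrate. Samples held 16.0, 15.2 and 15.9 TPM in vehicle and 21.2, 22.5 and 23.1 TPM with UK5099 (chr1:74830675-74843338, plus strand). Levels were 9.11, 9.50 and 9.67 TPM with butyrate and 12.4, 13.2 and 12.5 TPM with the combination. In TPM UK5099 lay above vehicle, and the combination and butyrate lay below it, without overlap. The combination gave -0.30 ± 0.0418 (adjusted p = 1.39e-04) there. After median of ratios scaling it stood above vehicle at 0.21 (adjusted p = 0.00171) and with voom at 0.17 (adjusted p = 0.00154), so its direction turned with the scale. Butyrate against UK5099 gave -1.23 ± 0.0418 (adjusted p = 3.33e-08), while UK5099 alone at 0.50 ± 0.0418 (adjusted p = 1.09e-05) and butyrate alone at -0.73 ± 0.0418 (adjusted p = 3.46e-07) stayed under the limit on size.

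Wnt5a, the main ligand of the beta-catenin-independent branch, was lowered by butyrate. Vehicle samples held 11.4, 11.6 and 11.9 TPM (chr14:28226707-28249405, plus strand) and UK5099 samples 8.91, 9.02 and 10.2 TPM. With butyrate 2.94, 2.85 and 3.06 TPM remained and with the combination 3.999, 4.57 and 4.39 TPM. Both butyrate-treated groups lay below both others. The coefficient was -1.94 ± 0.0627 (adjusted p = 1.10e-08) for butyrate, -1.41 ± 0.0627 (adjusted p = 3.53e-08) for the combination and -1.63 ± 0.0627 (adjusted p = 6.77e-08) for butyrate against UK5099. The combination value was -0.91 after median of ratios scaling and lost its call there.

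Wnt11, which also acts in polarity signalling, followed Wnt5a. It held 1.81, 2.04 and 2.00 TPM in vehicle and 2.13, 2.03 and 2.05 with UK5099 (chr7:98484319-98504402, plus strand), which overlapped. With butyrate it held 0.673, 0.648 and 0.785 TPM and with the combination 1.00, 1.05 and 1.17 TPM, all below vehicle. Butyrate gave -1.36 ± 0.076 (adjusted p = 2.88e-07) against vehicle and -1.44 ± 0.076 (adjusted p = 4.48e-07) against UK5099, and the combination -0.81 ± 0.076 (adjusted p = 7.61e-06), under the limit on size.

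Wnt7b, a ligand by which epithelia act on neighbouring tissue, was lowered in steps. Vehicle samples held 17.6, 17.6 and 17.6 TPM (chr15:85419638-85466674, minus strand), and those with UK5099 held 9.38, 9.49 and 9.43 TPM. Butyrate samples held 9.10, 9.21 and 9.31 TPM and combination samples 6.55, 6.35 and 6.28 TPM. The ranges of the 2 single treatments lay side by side, well below vehicle and above the combination. Only the combination passed both limits, at -1.45 ± 0.0233 (adjusted p = 1.40e-10), and after median of ratios scaling it stood at -0.94, short of the limit on size. The single coefficients were -0.89 ± 0.0233 (adjusted p = 8.78e-09) for UK5099 and -0.93 ± 0.0233 (adjusted p = 2.75e-09) for butyrate.

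Among ligands that were not called, Wnt4 and Wnt9a were the most abundant per exonic length. Wnt4, needed for kidney tubules and the reproductive tract, held 14.6 ± 0.374 TPM in vehicle and 17.6 ± 0.519, 16.2 ± 0.235 and 15.4 ± 0.253 TPM with UK5099, butyrate and the combination. Wnt9a held 3.30 ± 0.221, 3.02 ± 0.0668, 2.42 ± 0.0731 and 2.87 ± 0.0364 TPM in the same order. Wnt2b and Wnt5b stayed under 0.12 TPM in every sample. Wnt6 and Wnt10a are neighbours on chromosome 1, 6.19 kb apart on the same strand, and butyrate raised Wnt6 while Wnt10a was lower with butyrate than with UK5099. Wnt3a and Wnt9a are neighbours on chromosome 11, 16.2 kb apart on opposite strands, and only Wnt3a of the pair was called.

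Upstream sequence was available from RefSeq (GRCm38.p6) for 28 of the 41 members, with 36 starts in all, and the 250 bases before each start were read. These windows were rich in G and C, with a median of 65.8% and 16 CpG dinucleotides, beside 52.4% and 6 over all 32851 promoters. The GC box GGGCGG, a short word bound by Sp and Kruppel-like factors, was searched on both strands. The TCF/LEF words searched in the same way began with CTTTG and ended in AA, in AT, in TT or in TA, and neither set overlaps the other. The GC box was present in 25 of the 36 windows (69.4%), beside 32.7% of all promoters, and a TCF/LEF word in 4 (11.1%, beside 14.8%). A match describes letters only and is not a bound site. Of the members with a single listed start that were called against vehicle, 5 are shown, because they hold the ligand that appeared from 0, the ligand raised by each treatment and 3 genes that fell. The remaining 4 such windows, of Fzd10, Fzd4, Wif1 and Wnt7a, hold more than 30 bases of annotated exon and are not shown. Capitals mark the GC box on either strand, and the printed strand is that of the gene.
Wnt3a, chr11:59290752-59291001, minus strand: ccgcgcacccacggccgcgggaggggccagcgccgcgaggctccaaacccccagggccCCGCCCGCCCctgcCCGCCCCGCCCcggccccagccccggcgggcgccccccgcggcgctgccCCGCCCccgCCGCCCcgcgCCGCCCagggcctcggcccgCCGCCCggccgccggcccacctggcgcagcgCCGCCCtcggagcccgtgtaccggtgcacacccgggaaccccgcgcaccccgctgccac
Wnt6, chr1:74771642-74771891, plus strand: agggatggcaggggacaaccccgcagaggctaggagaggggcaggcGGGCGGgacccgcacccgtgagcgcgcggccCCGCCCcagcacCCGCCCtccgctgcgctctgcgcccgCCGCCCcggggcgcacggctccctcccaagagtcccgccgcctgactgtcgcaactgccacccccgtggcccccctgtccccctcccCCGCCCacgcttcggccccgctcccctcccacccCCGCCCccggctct
Wnt10b, chr15:98778151-98778400, minus strand: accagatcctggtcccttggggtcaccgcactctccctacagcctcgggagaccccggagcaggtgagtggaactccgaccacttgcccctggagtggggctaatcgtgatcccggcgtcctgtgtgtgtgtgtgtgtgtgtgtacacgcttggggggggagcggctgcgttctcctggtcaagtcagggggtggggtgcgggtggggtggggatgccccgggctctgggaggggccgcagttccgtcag
Fzd1, chr5:4758217-4758466, minus strand: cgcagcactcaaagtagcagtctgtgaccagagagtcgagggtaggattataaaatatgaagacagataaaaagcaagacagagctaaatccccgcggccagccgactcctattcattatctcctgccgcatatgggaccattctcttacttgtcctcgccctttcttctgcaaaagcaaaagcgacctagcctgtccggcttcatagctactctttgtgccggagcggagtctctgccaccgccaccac
Lgr6, chr1:135105277-135105526, minus strand: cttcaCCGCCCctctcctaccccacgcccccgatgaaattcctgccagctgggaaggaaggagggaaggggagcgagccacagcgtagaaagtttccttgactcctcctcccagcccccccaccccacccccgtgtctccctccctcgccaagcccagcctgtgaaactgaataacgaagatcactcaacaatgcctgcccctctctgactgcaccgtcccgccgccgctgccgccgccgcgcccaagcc
Wnt3a held 9 GC boxes, 41 CpG and 87.6% G and C, and Wnt6 held 6 boxes, 28 CpG and 79.6%. Wnt10b and Fzd1 held 0 boxes with 14 and 12 CpG, and Lgr6 held 1 box with 16 CpG. Of the members called against vehicle that have a listed start, 5 were called higher (Wnt3a, Wnt6, Wnt7a, Fzd10 and Wif1). Wnt7a among them was called with UK5099 only and lay below vehicle with butyrate. Their windows had 62.8% to 87.6% G and C and 21 to 41 CpG. The 8 starts of the 6 called lower (Fzd1, Fzd4, Lgr6, Tcf7, Wnt10b and Wnt11) had 51.2% to 76.0% and 12 to 37 CpG. GC boxes in the other windows called higher numbered 1 for Fzd10, 2 for Wif1 and 6 for Wnt7a. In those called lower they numbered 7 for Fzd4, 4 and 0 for the starts of Wnt11, and 1 and 2 for those of Tcf7. These ranges and the GC box counts overlap between the directions, and no test was made. They include windows with annotated exon, namely Fzd10 (250 of 250 bases), Fzd4 (118), Wnt7a (101), Wif1 (44) and 1 start of Tcf7 (67). The counts over all 36 windows include further such windows.

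Frizzled receptor RNA summed to 83.1 ± 1.84 exonic FPKM in vehicle. The sums under UK5099, butyrate and the combination were 85.5 ± 0.95, 90.3 ± 1.15 and 95.8 ± 0.811. On the scale of TPM they were 80.9 ± 2.20, 72.5 ± 1.34 and 73.3 ± 1.08, beside 83.1 ± 2.16 in vehicle, so the direction of the summed level turned with the scale. Fzd6 and Fzd7 were the most abundant in every group and neither was called. Fzd6, a receptor of planar polarity, held 27.7 ± 0.418 exonic FPKM in vehicle, and its TPM was 21.4 ± 0.415 in vehicle and 23.6 ± 0.493 with the combination. Fzd7, known from epithelial stem cells, held 19.0 ± 0.932 exonic FPKM, and its TPM was 97.9 ± 4.75 and 109 ± 2.67. Within this family the called members were Fzd1, Fzd3 and Fzd4, which were lower, and Fzd10, which was higher.

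Fzd1 came next in vehicle at 15.4 ± 0.787 exonic FPKM and fell with treatment. Its TPM (chr5:4803839-4808035, minus strand) was 84.5, 77.9 and 75.7 in vehicle samples and 39.3, 41.0 and 39.6 with UK5099. Butyrate samples held 31.5, 32.1 and 34.4 TPM and combination samples 23.2, 22.4 and 22.8 TPM. In TPM the 4 groups followed each other downwards without overlap. The step from UK5099 to butyrate was -0.29 ± 0.0476 (adjusted p = 6.80e-04). After median of ratios scaling this step was -0.09 (adjusted p = 0.159), and with voom -0.12 (adjusted p = 0.023). Coefficients were -1.28 ± 0.0476 (adjusted p = 2.45e-08) for butyrate and -1.79 ± 0.0476 (adjusted p = 1.63e-09) for the combination, and UK5099 at -0.99 ± 0.0476 (adjusted p = 3.57e-07) fell just short of the limit on size. After median of ratios scaling butyrate gave -0.92 and lost its call, and the combination kept it at -1.28. As a share of all Frizzled RNA, Fzd1 went from 18.5% in vehicle to 9.58%, 8.73% and 6.04%.

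Fzd4, which is also the receptor of norrin in vessels, held 27.8, 26.1 and 25.7 TPM in vehicle and 16.0, 16.7 and 16.8 with UK5099 (chr7:89053563-89062342, plus strand). It held 18.2, 17.3 and 17.5 TPM with butyrate and 11.1, 10.8 and 12.3 with the combination. The single treatments lay between vehicle and the combination. Only the combination was called, at -1.21 ± 0.0518 (adjusted p = 2.73e-08), and it stood at -0.71 after median of ratios scaling, without a call.

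Fzd3, known from axon guidance and polarity, held 0.694, 0.652 and 0.657 TPM in vehicle and 0.322, 0.36 and 0.34 with UK5099 (chr14:65429898-65499912, minus strand). Butyrate samples held 0.409, 0.408 and 0.408 TPM and the combination 0.25, 0.265 and 0.272 TPM, again with both single treatments between the extremes. The combination was called at -1.09 ± 0.0385 (adjusted p = 8.39e-09) and stood at -0.68, without a call, after median of ratios scaling.

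Fzd10 rose from a low level. Vehicle samples held 0.232, 0.815 and 0.553 TPM (chr5:128677908-128681157, plus strand) and UK5099 samples 1.04, 1.24 and 1.34 TPM. With butyrate it held 2.71, 2.86 and 2.14 TPM and with the combination 2.82, 2.57 and 2.88 TPM. All treated samples lay above vehicle, and butyrate and the combination overlapped. The coefficients were 2.18 ± 0.31 (adjusted p = 1.82e-04) and 2.29 ± 0.31 (adjusted p = 1.07e-04) for these 2 groups. UK5099 gave 1.16 ± 0.31 (adjusted p = 0.0134), which missed the limit on p and was called after median of ratios scaling at 1.27.

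The other 4 Frizzled genes were not called. Fzd2 held 22.6 ± 0.479 TPM in vehicle and 20.1 ± 2.06 with the combination, Fzd5 36.9 ± 1.38 and 36.5 ± 0.705, and Fzd8 7.69 ± 0.34 and 10.9 ± 0.266. The combination called Fzd8 after median of ratios scaling, at 1.00. Fzd9 held 1.05, 0.816 and 0.784 TPM in vehicle and 0.353, 0.285 and 0 with UK5099, which did not overlap. On 4 to 17 fragments per group its UK5099 coefficient was -1.91 ± 0.54 (adjusted p = 0.0181), short of the limit on p.

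**Figure D4:**
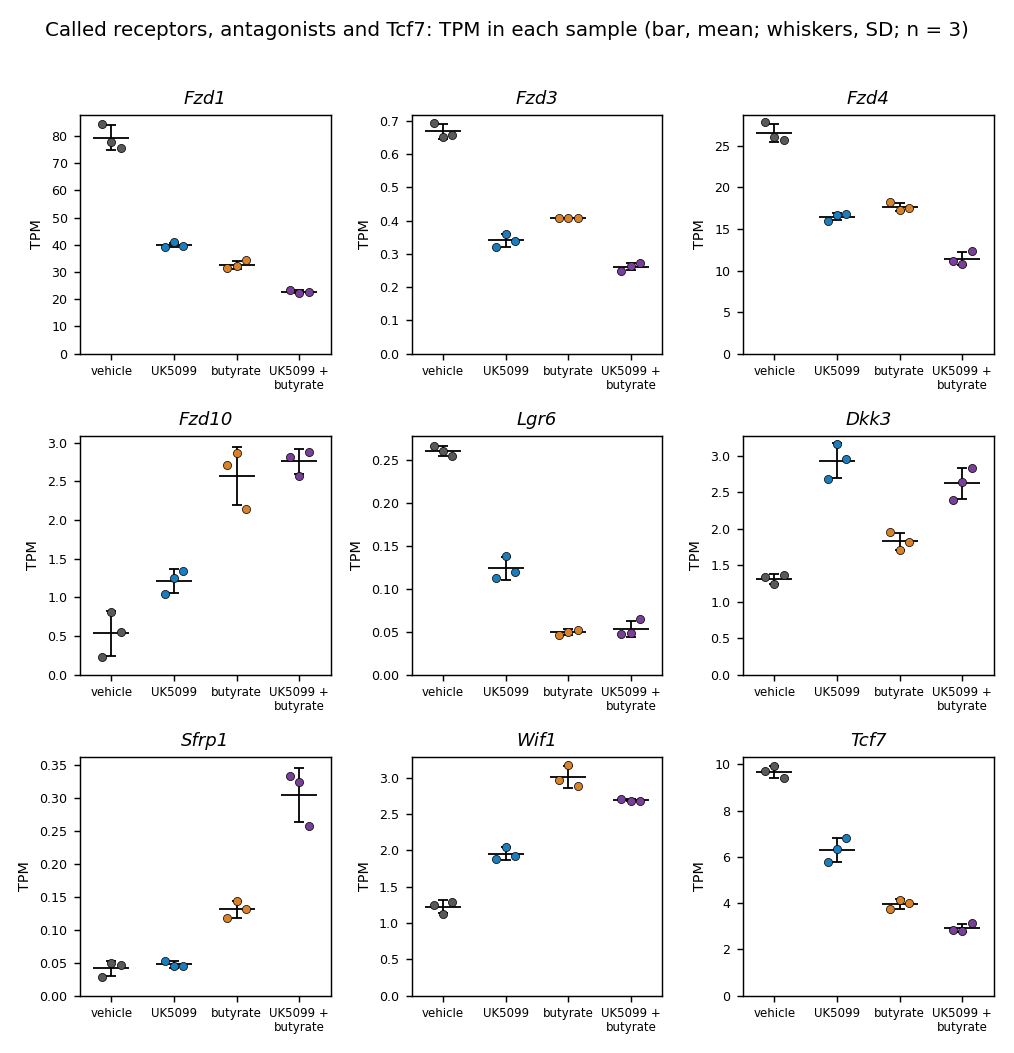
TPM (linear axis from 0) in each sample for the called Frizzled receptors, Lgr6, the antagonists and Tcf7, with 3 points, a mean bar and SD whiskers per group. Fzd1, Fzd3, Fzd4, Lgr6 and Tcf7 are highest in vehicle, and Fzd10, Dkk3, Sfrp1 and Wif1 have their lowest mean there.

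Neither co-receptor was called. Lrp5 held 13.0 ± 0.436 TPM in vehicle and 10.3 ± 0.2, 10.6 ± 0.239 and 8.17 ± 0.0519 TPM with UK5099, butyrate and the combination. Lrp6 held 9.14 ± 0.217, 7.38 ± 0.551, 5.61 ± 0.123 and 4.92 ± 0.195 TPM in that order. In exonic FPKM the pair summed to 41.9 ± 0.743 in vehicle and 32.6 ± 0.53 with the combination, or 24.96 ± 0.367 on the scale of TPM.

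Of the R-spondin receptors, Lgr4 made up 95.9% of the RNA in vehicle and was not called. Lgr4 held 23.0 ± 0.425 exonic FPKM in vehicle. Its TPM was 7.24 ± 0.182 in vehicle and 4.72 ± 0.056, 5.91 ± 0.088 and 3.76 ± 0.0931 with UK5099, butyrate and the combination. Its coefficient was -0.61 ± 0.0286 (adjusted p = 3.12e-07) for UK5099 and -0.93 ± 0.0286 (adjusted p = 3.82e-09) for the combination, both short of the limit on size. Lgr6, known as a stem cell marker of skin, fell. Vehicle samples held 0.266, 0.261 and 0.254 TPM (chr1:134911039-135033014, minus strand) and UK5099 samples 0.113, 0.138 and 0.12 TPM. With butyrate it held 0.0457, 0.0495 and 0.0525 TPM and with the combination 0.0476, 0.0487 and 0.0642 TPM. The last 2 groups overlapped and lay below UK5099, which lay below vehicle. Coefficients were -1.27 ± 0.052 (adjusted p = 4.24e-08) for butyrate and -1.23 ± 0.052 (adjusted p = 2.51e-08) for the combination, the latter -0.96 and without a call after median of ratios scaling. Lgr5, the intestinal stem cell marker, held 8 to 30 fragments on average per group and was not called.

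The ligases Rnf43 and Znrf3 were not called. Per exonic length vehicle held 5.98 ± 0.244 FPKM of Rnf43 and 4.35 ± 0.105 of Znrf3. Rnf43 held 2.78 ± 0.121, 2.32 ± 0.037, 2.63 ± 0.0417 and 1.98 ± 0.0538 TPM in vehicle, UK5099, butyrate and the combination. Znrf3 held 1.05 ± 0.0353, 0.847 ± 0.0657, 1.12 ± 0.014 and 0.726 ± 0.0352 TPM in the same order. With butyrate Rnf43 lay below vehicle in TPM and was higher in exonic FPKM (7.05 ± 0.153).

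Secreted antagonists gave the largest relative rise of any role in exonic FPKM. Their sum went from 9.88 ± 0.713 in vehicle to 18.9 ± 1.11, 25.9 ± 1.00 and 27.9 ± 0.51 under UK5099, butyrate and both together. On the scale of TPM these sums were 17.8 ± 1.04, 20.8 ± 0.687 and 21.4 ± 0.45. Wif1 and Dkk3 made up nearly all of each sum.

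Wif1 encodes a protein that binds Wnt ligands outside the cell. Vehicle samples held 1.25, 1.12 and 1.29 TPM (chr10:120869865-120936555, plus strand) and UK5099 samples 1.89, 2.05 and 1.92 TPM. Butyrate raised it to 2.97, 3.18 and 2.88 TPM and the combination to 2.701, 2.68 and 2.68 TPM. No treated group overlapped vehicle. The coefficients were 1.24 ± 0.0555 (adjusted p = 7.41e-08) and 1.08 ± 0.0555 (adjusted p = 9.13e-08) for butyrate and the combination, while UK5099 gave 0.64 ± 0.0555 (adjusted p = 1.44e-05), under the limit on size.

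Dkk3, a divergent Dickkopf protein whose part in Wnt signalling is less clear, rose with UK5099. Samples held 1.34, 1.24 and 1.37 TPM in vehicle and 2.69, 3.16 and 2.96 with UK5099 (chr7:111715224-111758264, minus strand). Butyrate samples held 1.95, 1.72 and 1.82 TPM and combination samples 2.40, 2.64 and 2.83 TPM. All treated samples lay above vehicle, and UK5099 and the combination overlapped. UK5099 gave 1.10 ± 0.079 (adjusted p = 4.31e-06). The combination gave 0.94 ± 0.079 (adjusted p = 3.21e-06), just under the limit on size, and was called at 1.42 after median of ratios scaling.

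Sfrp1, which carries a Frizzled-like domain that binds Wnt ligands, rose most when both drugs were present. It held 0.0277, 0.0491 and 0.0471 TPM in vehicle and 0.0531, 0.0445 and 0.0444 with UK5099 (chr8:23901518-23939648, plus strand), which overlapped. Butyrate samples held 0.118, 0.143 and 0.132 TPM and combination samples 0.333, 0.325 and 0.258 TPM, each above the groups before. The combination was called at 1.52 ± 0.0852 (adjusted p = 1.67e-07), and butyrate gave 0.71 ± 0.0852 (adjusted p = 5.71e-05), under the limit on size.

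At the nuclear end, Tcf7, a DNA-binding partner of beta-catenin, was lowered. Vehicle samples held 9.70, 9.94 and 9.42 TPM (chr11:52143198-52174158, minus strand) and UK5099 samples 5.78, 6.34 and 6.80 TPM. Butyrate left 3.74, 4.12 and 4.02 TPM and the combination 2.84, 2.78 and 3.13 TPM. The 4 groups did not overlap. Coefficients were -1.27 ± 0.0668 (adjusted p = 1.93e-07) for butyrate and -1.70 ± 0.0668 (adjusted p = 1.64e-08) for the combination, and after median of ratios scaling the first was -0.92, without a call, and the second -1.20. UK5099 alone gave -0.61 ± 0.0668 (adjusted p = 6.20e-05). Axin2, a brake of the pathway and its most used target gene, was not called. It held 12.8, 12.6 and 12.7 TPM in vehicle and 16.4, 16.4 and 16.6 with UK5099. With butyrate it held 17.4, 17.0 and 17.3 TPM and with the combination 12.7, 13.8 and 13.7 TPM. In TPM both single treatments lay above vehicle, and the combination overlapped it at 0.08 ± 0.0326 (adjusted p = 0.0661). After median of ratios scaling the combination stood at 0.58 (adjusted p = 1.71e-07) and with voom at 0.55, above vehicle and under the limit on size. Lef1 held 3 to 36 fragments on average per group, and of its 12 values only 6 came out as whole fragments, so its reads may be shared with another listed gene. Its TPM was 0.0036 ± 0.00172 in vehicle and 0.0355 ± 0.00379 with butyrate, without overlap. Butyrate gave 0.39 ± 0.0469 (adjusted p = 6.18e-05), under the limit on size. Voom called Lef1 higher with butyrate at 3.53 (adjusted p = 3.43e-06) and with the combination at 2.22 (adjusted p = 0.0019).

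The interaction asks whether the effect of UK5099 differed in the presence of butyrate. Apart from Wnt10b, 12 members had an adjusted p under 0.01 for it with an absolute coefficient of at most 1, which makes 13 of 41 (31.7%) on p alone, beside 11.1% of all genes. Axin2 stood at -0.73 ± 0.0461 (adjusted p = 9.63e-06), the combination lying below the sum of the single effects. Wif1 stood at -0.80 ± 0.0785 (adjusted p = 1.38e-04) and Dkk3 at -0.60 ± 0.11 (adjusted p = 0.00495). Wnt5a was positive at 0.84 ± 0.0887 (adjusted p = 1.94e-04), as were Sfrp1 at 0.74 ± 0.12 (adjusted p = 0.00234) and Lgr6 at 0.73 ± 0.0736 (adjusted p = 1.56e-04). These 6 values kept their sign after median of ratios scaling and with voom. With voom Sfrp1 had an adjusted p of 0.0901, on 11 and 14 fragments on average in vehicle and UK5099, and the others stayed under 0.01.

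The wider pathway was read from 8 lists of other Wnt genes, of which 66 of 73 genes were in the table. UK5099 raised 2 of the 66 and lowered 4, butyrate raised 6 and lowered 7, and the combination raised 5 and lowered 11. In percent raised and lowered this is 3.03% and 6.06%, 9.09% and 10.6%, and 7.58% and 16.7%, beside 1.85% and 2.34%, 2.95% and 4.98%, and 4.16% and 9.18% of all genes. The median coefficients of these genes were -0.12, -0.37 and -0.52, close to the shift of all genes with at least 1 TPM. After median of ratios scaling butyrate raised 6 and lowered 2 of them and the combination raised 7 and lowered 4, while UK5099 gave the same counts as before, so the balance of directions depended on the scale. Among 11 genes of the destruction complex, which marks beta-catenin for breakdown, and beta-catenin itself, Csnk1e passed both limits with butyrate at -1.03 ± 0.0345 (adjusted p = 1.40e-08). With both drugs Csnk1e and Axin1 passed them at -1.08 ± 0.0345 (adjusted p = 4.64e-09) and -1.04 ± 0.0363 (adjusted p = 7.61e-09), and after the scaling these 3 values were -0.67, -0.57 and -0.54, without a call. These counts are 9.09% and 18.2% of the 11 genes, beside 4.98% and 9.18% lower over all genes. Of the 4 ligand-processing genes, Porcn, which attaches the lipid to Wnt ligands, and Notum, which removes it, were not called at first but passed for both drugs after that scaling, at 1.12 and 1.07, against 0.62 ± 0.0654 (adjusted p = 1.74e-05) and 0.73 ± 0.15 (adjusted p = 0.00205) before it. The 12 target genes split, with 3 higher and 3 lower under butyrate (25% each, beside 2.95% and 4.98% of all genes) and 2 higher and 4 lower under the combination (16.7% and 33.3%, beside 4.16% and 9.18%), and after the scaling with 3 higher and 0 lower and with 2 higher and 2 lower.

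The 8 called pathway genes with the largest coefficients against vehicle were 4 target genes, 3 antagonists and Prickle2. Mmp7, a matrix protease and target gene, gave -1.20 ± 0.0512 (adjusted p = 1.70e-07) with UK5099 and -3.88 ± 0.0512 (adjusted p = 5.50e-11) with the combination. Shisa2, which holds Frizzled inside the cell, gave -2.64 ± 0.22 (adjusted p = 1.02e-05), -1.71 ± 0.22 (adjusted p = 8.70e-05) and -3.77 ± 0.22 (adjusted p = 2.05e-07) with UK5099, butyrate and the combination. Dact2, a Dishevelled-binding protein, gave -1.63 ± 0.12 (adjusted p = 3.81e-06), -1.67 ± 0.12 (adjusted p = 1.13e-06) and -2.38 ± 0.12 (adjusted p = 6.13e-08) in the same order. Kremen2, a co-factor of Dickkopf proteins, was higher at 2.00 ± 0.20 (adjusted p = 1.51e-05) with butyrate and 2.38 ± 0.20 (adjusted p = 3.04e-06) with the combination. Sp5, a direct target gene, was lower at -1.89 ± 0.35 (adjusted p = 9.40e-04) with the combination. Ccnd1, which encodes cyclin D1, gave -1.09 ± 0.028 (adjusted p = 3.21e-09) and -1.42 ± 0.028 (adjusted p = 3.50e-10) with butyrate and the combination, and after median of ratios scaling neither kept its call (-0.73 and -0.91). Fosl1, an AP-1 factor, was higher with UK5099 at 1.43 ± 0.0534 (adjusted p = 7.68e-08). Prickle2, of the polarity branch, was higher with UK5099 at 1.40 ± 0.0391 (adjusted p = 1.40e-08) and with the combination at 1.12 ± 0.0391 (adjusted p = 7.80e-09).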

How the data were processed

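RNA was sequenced in 12 organoid samples, 3 in each of 4 groups taken from the labels. Per the labels the libraries were depleted of ribosomal RNA and enriched for mRNA. The study's methods name fastp, STAR, GRCm38 and RSEM, while the submitters' processing notes name STAR 2.7.9a, Partek and GRCm39. The deposited table gave TPM per gene and named no build: 2.21% of its genes had the start that GENCODE M21 gives for GRCm38. The authors' TPM equalled estimated fragments divided by stop minus start, introns included, and the listed length was that difference in 100% of genes. Steps of the low values gave whole fragments for 75.4% to 76.7% of protein-coding values under 1000 fragments, with a tolerance of 0.02 fragment. At the median span of 11598 bp, 1 TPM was 74.4 to 127.9 fragments, so a pseudocount of 0.1 TPM was used; the study's methods state none.

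All 24674 genes and 12 samples entered 1 limma 3.58.1 fit (R 4.3.3) of log2(TPM + 0.1) with UK5099, butyrate and their interaction, as in the study's methods, with Benjamini-Hochberg adjustment over all genes. Voom ran on the recovered fragments as an alternative. On simulated fragments with 200 changed genes of 24674, 133, 130 and 120 were recovered for UK5099, butyrate and the interaction. Of those with at least 100 fragments, 101 of 101, 100 of 103 and 106 of 111 were recovered. False calls numbered 1, 1 and 0. In the data 1034, 1955 and 519 genes were called in the same order, and recovery with that many changed genes was not tested. All replicate pairs differed by more than sampling noise. The members, lists and tests were chosen with earlier results of these data known. Full values are given for members called in any comparison, values alone for the 2 most abundant others of each role, and up to 8 called pathway genes are named. Several of the latter are given in more than 1 comparison. Python 3.11.15, pandas 2.3.3, numpy 2.4.6, scipy 1.17.1 and matplotlib 3.10.9 did the rest.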

Additional observations from a re-analysis of the deposited data

Results flagged for a closer look

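For Wnt10b the test of the difference between the UK5099 effects without and with butyrate passed both limits, but this call did not hold under 13 of 22 alternatives. The interaction coefficient was 1.72 ± 0.35 (adjusted p = 0.00854) in the limma fit over all genes. UK5099 alone gave -1.43 against vehicle, from 0.95 ± 0.206 to 0.298 ± 0.123 TPM (SD, n = 3), whereas butyrate alone stood at 0.161 ± 0.0529 TPM and the combination at 0.214 ± 0.0197 TPM. The call was lost in 9 of 12 fits that left out 1 library, with the replicate block (adjusted p = 0.0252), with pseudocounts of 1 TPM (coefficient 0.65) and 0.01 TPM (adjusted p = 0.015), and without UK5099 1 and combination 1 (adjusted p = 0.035). Without each library in turn the coefficient ran from 1.44 to 1.91, and with voom on recovered fragments it was 2.20.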

How the results depend on the processing

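Of the 32 calls of a member in a comparison, 0 reversed under the 22 settings that gave a value for each, nor did any of the 17 that could be fitted among genes averaging 1 TPM or more. A pseudocount of 1 TPM lost 20, median of ratios and quantile normalisation 7 each, and voom 6 (Tcf7 and Fzd1 with butyrate, and Fzd3, Fzd4, Wnt5a and Wnt7b with the combination). Members called are given for UK5099, butyrate, the combination, the interaction and butyrate against UK5099, in that order. They were 0, 4, 6, 0 and 2 of 41 with a pseudocount of 1 TPM. On adjusted p alone they were 28, 26, 28, 13 and 23 of 41, beside 32.0%, 45.9%, 51.7%, 11.1% and 37.3% of all genes. Among genes that averaged 1 TPM or more they were 2, 6 and 7 against vehicle and 0 for the interaction. A pseudocount of 0.01 TPM gave 9 for UK5099, 2 for the interaction and 9 for butyrate against UK5099, and voom gave 10, 5 and 11. Leaving out each replicate gave 4 to 5, 10 to 10, 13 to 14, 0 to 1 and 4 to 5. An adjusted p under 0.05 gave 2 for the interaction. It had 0 members called without UK5099 1 and combination 1, chosen after seeing the data (adjusted p of Wnt10b 0.035), and 0 with a replicate block (adjusted p 0.0252), against 23 members at an unadjusted p under 0.05. The replicate block kept the other 31 calls. Beyond the fit used for the calls, the share of all genes was counted only for adjusted p alone, median of ratios and voom. Counts of members under the other settings therefore have no such share beside them. Same-numbered samples did not deviate together, with correlations of -0.067 to 0.032 and 0 of 18 over 0.1, so the numbers were not taken to pair samples. No paired fit was therefore preferred. The causes of these changes were not tested, except that fewer genes or samples enter some fits. Depth limits Wnt10b, Wnt2b, Wnt5b, Fzd9, Fzd10, Lgr5, Lef1 and the 6 lowest members, whose groups all hold under 100 fragments on average. Wnt3a, Wnt6, Wnt7a, Lgr6 and Sfrp1 hold under 100 in at least 1 group, with 19 for Wnt6 in vehicle. In the simulation genes with at least 100 fragments were those recovered most often.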
